A study of Sus scrofa with 10 samples.

Results

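Microglia of the pig medial entorhinal cortex (MEC) were compared between embryonic day 60 (E60) and day 70 (E70) of gestation. A cell was taken as a microglial cell if C1QA, C1QB, CSF1R and AIF1 together had at least 5 unique molecular identifiers (UMIs, each a tagged RNA molecule) and at least 0.1% of all UMIs of the cell, and if HBB, a hemoglobin gene of red blood cells, had under 5%. By this rule 1934 of the 18576 cells of the 6 libraries were microglia, of which 1798 were found at E60 and 136 at E70. In the whole series 2291 of 28229 cells passed. The fetuses were crossbred pigs of both sexes, from Danish Landrace/Yorkshire sows inseminated with Duroc semen, with no genetic change and no treatment at either stage. Fresh tissue was dissociated with papain, whole cells were captured on the 10X Genomics platform, and each stage had 3 libraries, here named E60_1 to E60_3 and E70_1 to E70_3. By the labels, E60_3 and E70_1 each pooled 2 brains and the other 4 libraries came from 1 brain each. The libraries were made from tissue of different animals as far as the labels say, and no sample label ties a library of E60 to a library of E70. By the library numbers of the study, read here as sequencing pools, E60_1 shared a pool with E70_1 and E60_3 with E70_3. Further libraries of whole cells at E50 and from the postnatal brain (E50_1 and Adult_1) had 1 library each and are given as values only.

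Microglia are the resident macrophages of the brain. They come from yolk sac progenitors that enter the neural tube early in gestation, divide within the tissue, and depend on signals through the receptor CSF1R. They clear dying cells and debris, tag synapses with complement proteins of the C1q complex, and sense injury through purine receptors such as P2RY12. Macrophages at the brain borders (meninges, choroid plexus and vessels) express C1q and CSF1R as well and are told apart by MRC1, LYVE1 and CD163.

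Microglia made up 14.5% (1181 of 8171 cells) of E60_1, 14.1% (492 of 3479) of E60_2, 4.64% (125 of 2696) of E60_3, 3.45% (17 of 493) of E70_1, 2.92% (18 of 617) of E70_2 and 3.24% (101 of 3120) of E70_3. Exact Clopper-Pearson 95% confidence intervals, which cover counting error only, ran from 3.87% to 5.50% in E60_3 and from 2.02% to 5.46% in E70_1. The shares in E60_1 and E60_2 stood far above the other 4 libraries, while the interval of E60_3 overlapped those of the E70 libraries. Since the rule used the 4 genes and since dissociation sets which cells are captured, these shares are a description and were not tested. Their UMIs summed to 6221728, 2910243 and 1697761 at E60 and to 268332, 215306 and 1016629 at E70, so that E70_1 and E70_2 gave the least precise levels. A microglial cell had a median of 4698, 5311 and 11922 UMIs at E60 and 16025, 11836 and 9813 at E70. Between 0 and 43 cell barcodes were shared by a pair of libraries, at most 1.83% of the smaller library.

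**Figure D1:**
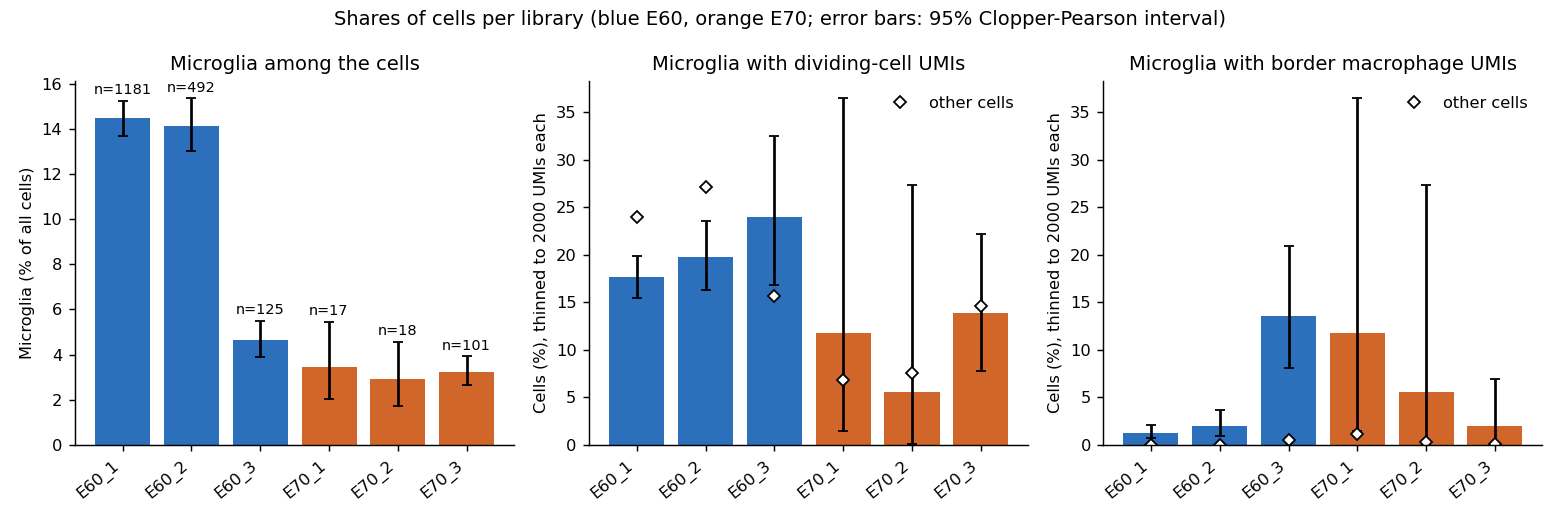
Share of cells per library, in %, for the 3 E60 (blue) and 3 E70 (orange) libraries: microglia among all cells, then microglia with UMIs of dividing-cell genes and of border macrophage genes after thinning each cell to 2000 UMIs. Error bars are 95% Clopper-Pearson intervals, open diamonds are the other cells of the same library, and the intervals of E70_1 (n = 17) and E70_2 (n = 18) are the widest.

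The values that chose the cells are given as a description. C1QA, the first chain of C1q, was at 1747, 1726 and 783 CPM in the microglia of the 3 E60 libraries and at 775, 910 and 1165 CPM at E70, where CPM is the gene's share of all UMIs summed over the cells, scaled to the same total in every library. C1QB was at 4289, 4010.3 and 1109 CPM at E60 and at 1707, 2058 and 1812 CPM at E70. AIF1, a calcium-binding protein of macrophages, was at 1718, 1312 and 531 CPM at E60 and at 667, 785 and 901 CPM at E70. CSF1R was at 602, 519 and 386 CPM at E60 and at 473, 776 and 353 CPM at E70. For C1QA, C1QB and AIF1 the 2 libraries rich in microglia, E60_1 and E60_2, were the highest of the 6, and E60_3 was close to or below the lowest E70 value. Near the thresholds, 5 cells of E60_1 and 1 cell of E60_2 had exactly 5 UMIs of the 4 genes, and 5 cells of E60_1 had 4. Between 0.1% and 0.12% of UMIs lay 4, 3 and 6 cells of E60_1, E60_2 and E60_3, and between 0.08% and 0.1% lay 5, 2 and 6 cells of these libraries and 1 of E70_3.

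C1QC, the remaining chain of C1q, was not part of the rule, but its level follows cells chosen by C1QA and C1QB. It was at 1401, 1488 and 398 CPM at E60 (mean 1095 ± 606, SD, n = 3) and at 544, 673 and 664 CPM at E70 (627 ± 72.1), against at most 8.73 CPM in the other cells of any of the 6 libraries. The 3 C1q genes lie together on the forward strand of chromosome 6 of Sscrofa11.1, C1QA from 80586259 to 80589213, C1QC from 80592591 to 80597464 and C1QB from 80601680 to 80606076. Because all 3 genes had E60_1 and E60_2 as the 2 highest libraries, in differing order otherwise, the 250 bases before the RefSeq start of each gene are shown, read 5′ to 3′ on the forward strand of Sscrofa11.1 (chr6:80586009-80586258, chr6:80592341-80592590 and chr6:80601430-80601679). Capitals mark GAGGAA or its reverse complement TTCCTC, letters of the kind of box bound by PU.1 (SPI1), a transcription factor that macrophages need.
C1QA: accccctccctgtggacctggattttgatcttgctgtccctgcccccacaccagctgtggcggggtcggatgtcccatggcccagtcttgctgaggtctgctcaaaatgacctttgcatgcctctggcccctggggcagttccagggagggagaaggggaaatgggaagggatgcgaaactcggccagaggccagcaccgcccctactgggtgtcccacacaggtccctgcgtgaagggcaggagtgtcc
C1QC: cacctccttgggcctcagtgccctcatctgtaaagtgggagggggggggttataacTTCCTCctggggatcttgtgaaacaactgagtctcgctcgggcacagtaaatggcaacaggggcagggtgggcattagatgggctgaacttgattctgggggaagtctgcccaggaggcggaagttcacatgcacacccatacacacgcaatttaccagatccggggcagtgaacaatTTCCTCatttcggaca
C1QB: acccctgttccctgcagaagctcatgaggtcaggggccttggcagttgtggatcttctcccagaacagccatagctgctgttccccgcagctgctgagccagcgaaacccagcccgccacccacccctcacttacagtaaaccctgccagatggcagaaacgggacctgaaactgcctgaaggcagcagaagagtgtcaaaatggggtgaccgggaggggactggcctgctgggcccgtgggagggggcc
The letters occurred in C1QC only, as 2 copies on the reverse strand, and in 4296 of the 19556 promoters (22%) of protein-coding genes read the same way. This is a description of letters, and it says nothing of whether a factor binds.

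The markers of microglia were present in the chosen cells. Of 15 microglial markers, 14 were in the files and 1 of these, CD68, had no UMI in any cell of any library. The 14 markers summed to 14656, 13467 and 6382 CPM in the microglia of the 3 E60 libraries and to 7137, 8207 and 9329 CPM at E70, against 52.2 to 142 CPM in the other cells, a gap that the rule largely sets since its 4 genes are among the 14. TYROBP, a signaling adaptor of myeloid receptors outside the rule, was at 1153, 995 and 683 CPM at E60 and at 552, 701 and 1027 CPM at E70, with at most 8.25 CPM in other cells. Markers of other cell types were present too, in some libraries near or above their level in the other cells. The 10 astrocyte and radial glia markers summed to 1890, 1670 and 289 CPM in the microglia at E60 and to 149, 214 and 243 CPM at E70, with 1, 0 and 1 of them at 0 at E60 and 4, 3 and 1 at E70, against 1271 to 5947 CPM in the other cells. The 14 neuronal markers summed to 930, 1128 and 1318 CPM at E60 and to 533, 571 and 307 CPM at E70, against 1431 (E60_2) to 7759 CPM in the other cells, and 10 vascular markers to 411, 569 and 434 CPM and to 186, 153 and 211 CPM. All 3 lists were higher in every E60 library than in every E70 library, and their part in the results below was not tested. The 7 erythroid markers summed to 1087, 1150 and 348 CPM at E60 and to 552, 274 and 634 CPM at E70, the last above the 258 CPM of the other cells of E70_3. The summed levels of 8 oligodendroglia markers (81.9 to 203 CPM in microglia, 89.5 to 364 CPM in other cells), 10 lymphocyte markers (93.2 to 171 CPM, and 7.04 to 40.2 CPM) and 11 monocyte or neutrophil markers (91.5 to 347 CPM, and 194 to 331 CPM) overlapped between the stages in microglia. The 7 border macrophage markers summed to 51.6, 63.6 and 370 CPM at E60 and to 175, 144 and 70.8 CPM at E70, so that E60_3 stood apart.

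The 6 libraries fell into 3 pairs that did not follow the stage alone. Across 10974 genes, which are not independent replicates, the log CPM of the microglia correlated with r = 0.957 between E60_1 and E60_2, 0.931 between E60_3 and E70_3 and 0.811 between E70_1 and E70_2, and all other pairs of libraries gave 0.605 to 0.831. By the library numbers of the study, read here as sequencing pools, E60_3 and E70_3 shared a pool and so did E60_1 and E70_1, which correlated with r = 0.616. In each pair of libraries the members were also the 2 highest of the 6 for many genes: 2188 of 10969 (19.9%) for E60_1 and E60_2, 2106 (19.2%) for E60_3 and E70_3 and 2183 (19.9%) for E70_1 and E70_2. In the other cells the same pairs were the 2 highest for 29.6%, 16.8% and 20.8% of the genes. Gene by gene, 1515 of the 2188, 727 of the 2106 and 1452 of the 2183 genes had the same pair highest in other cells too. The pairs were thus also present in other cells, with the fewest shared genes for E60_3 and E70_3.

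No gene passed the test of stage. UMIs were summed per library and fitted for 10969 genes with edgeR's quasi-likelihood test, and none had a Benjamini-Hochberg adjusted p under 0.05 in either direction (0% called). The smallest adjusted p of edgeR was 0.1055, and 1794 genes (16.4%) had an unadjusted p under 0.05, of which 1094 were higher (9.97%) and 700 lower (6.38%) at E70. All 3 E70 levels lay above all 3 E60 levels for 772 genes (7.04%) and below them for 1197 genes (10.9%). These shares are the background against which the gene lists are read. DESeq2 called 504 genes higher (4.59%) and 97 lower (0.884%) at E70 on the same sums. Without E70_3, edgeR called 1028 of 12491 genes higher (8.23%) and 114 lower (0.913%), and without E60_3 it called 35 of 11034 higher (0.317%) and 76 lower (0.689%). With no filter on low counts edgeR called 445 of 17635 genes higher and 161 lower. The count of calls therefore changed with the tool, with the filter and with the libraries E70_3 and E60_3.

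Of the 16 gene lists, those of chemokines and cytokines (median log2 difference, E70 minus E60, of 0.65) and of immediate early and heat shock genes (0.50) had the highest medians, and those of border macrophage genes (-0.84) and of glycolysis and hypoxia (-0.41) the lowest. The median of all genes tested was -0.06. No list had a gene that passed the edgeR test. The medians depended on E70_3, since without it the cytokine list was at -0.64 and the list of myeloid transcription factors moved from 0.00 to -0.59, with all genes at -0.28. The border macrophage list depended on E60_3, since without it its median was -0.23, above those of glycolysis and hypoxia (-0.68) and of homeostatic genes (-0.61).

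**Figure D2:**
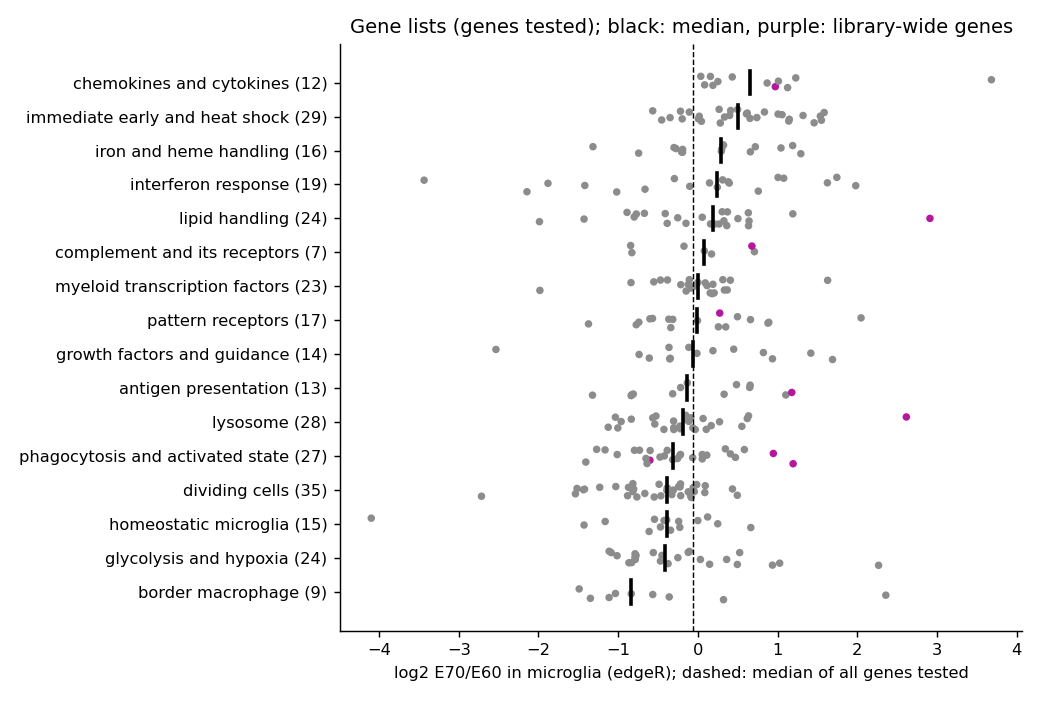
Log2 difference between E70 and E60 in microglia, fitted by edgeR, for each tested gene of the 16 lists (points), with the number of genes tested in brackets. Black bars are list medians, the dashed line is the median of all genes tested, and purple points are genes that were also high in the other cells of E70_1 and E70_2. The medians run from -0.84 to 0.65 while single genes run from -4.10 to 3.68.

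Genes of the homeostatic state, by which microglia survey the tissue, were described first. Of 20 listed genes 15 were tested, and 1 was higher (ENTPD1) and 3 were lower (SALL1 and SPARC among them) at E70 without overlap of the libraries. The share of lower genes, 20%, stands beside 10.9% of all genes, and that of higher genes, 6.67%, is near the 7.04% of all genes. No gene passed the test. P2RY12, the purine receptor that directs processes to injury, was at 364, 377 and 565 CPM at E60 and at 332, 381 and 801 CPM at E70, so the groups overlapped and E70_3 was the highest (log2 difference 0.25 ± 0.44, SE, adjusted p = 0.817 by edgeR). GPR34, a lysophospholipid receptor, was at 475, 332 and 294 CPM at E60 and at 194, 265 and 297 CPM at E70 (-0.54 ± 0.40). CX3CR1, the receptor of the neuronal chemokine CX3CL1, was at 212, 291 and 118 CPM at E60 and at 209, 153 and 168 CPM at E70 (-0.24 ± 0.44). SLC2A5, a fructose transporter of microglia, was at 359, 124 and 399 CPM at E60 and at 63.4, 172 and 324 CPM at E70 (-0.61 ± 0.61). For GPR34, CX3CR1 and SLC2A5 the stages overlapped.

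SALL1, a transcription factor that sets microglia apart from other macrophages, was at 70.7, 45.4 and 52.4 CPM at E60 and at 44.7, 32.5 and 43.3 CPM at E70. The groups did not overlap, but the nearest values, 45.4 and 44.7 CPM, were almost equal and the log2 difference of -0.47 ± 0.41 did not pass (edgeR adjusted p = 0.603). ENTPD1, which breaks down extracellular ATP, was at 78.6, 109 and 108 CPM at E60 and at 134, 153 and 172 CPM at E70 (0.66 ± 0.36, adjusted p = 0.390).

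Genes of phagocytosis and the activated state gave 1 gene higher (TIMD4) and 3 lower (AXL, LGALS1 and PLD3) without overlap, of 27 tested, near the shares of all genes (7.04% and 10.9%). TIMD4, a receptor for dying cells, was at 6.91, 13.1 and 8.25 CPM at E60 and at 14.9, 23.2 and 24.6 CPM at E70, and the other cells of E70_1 and E70_2 had 17.7 and 16.4 CPM, beside 0.964 to 4.08 CPM in those of the remaining libraries. SPP1, the secreted protein osteopontin, was at 20792, 7363 and 7749 CPM at E60 and at 3175, 2039 and 9885 CPM at E70. The library means were 11968 ± 7644 and 5033 ± 4240 CPM (SD, n = 3), and the groups overlapped because E70_3 was higher than E60_2 and E60_3 (log2 -1.27 ± 0.64, edgeR adjusted p = 0.353). Without E70_3 SPP1 was called lower at E70, with a log2 difference of -2.31 and an edgeR adjusted p of 0.0308. TREM2, the lipid-sensing receptor that signals through TYROBP, was at 244, 231 and 121 CPM at E60 and at 134, 158 and 209 CPM at E70 (-0.25 ± 0.44). CD63, a tetraspanin of late endosomes, was at 1519.7, 1244 and 428 CPM at E60 and at 313, 367 and 541 CPM at E70 (-1.41 ± 0.52, adjusted p = 0.229). FCER1G, an adaptor of Fc receptors, was at 1656, 1337 and 480 CPM at E60 and at 574, 632 and 827 CPM at E70 (-0.80 ± 0.50). For CD63 and FCER1G, as for C1QC, E60_1 and E60_2 were the highest and E60_3 did not exceed the highest E70 value. AXL, a receptor that binds dying cells through GAS6, was at 99.3, 101 and 81.3 CPM at E60 and at 59.6, 79.0 and 64.9 CPM at E70 (-0.47 ± 0.38).

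**Figure D3:**
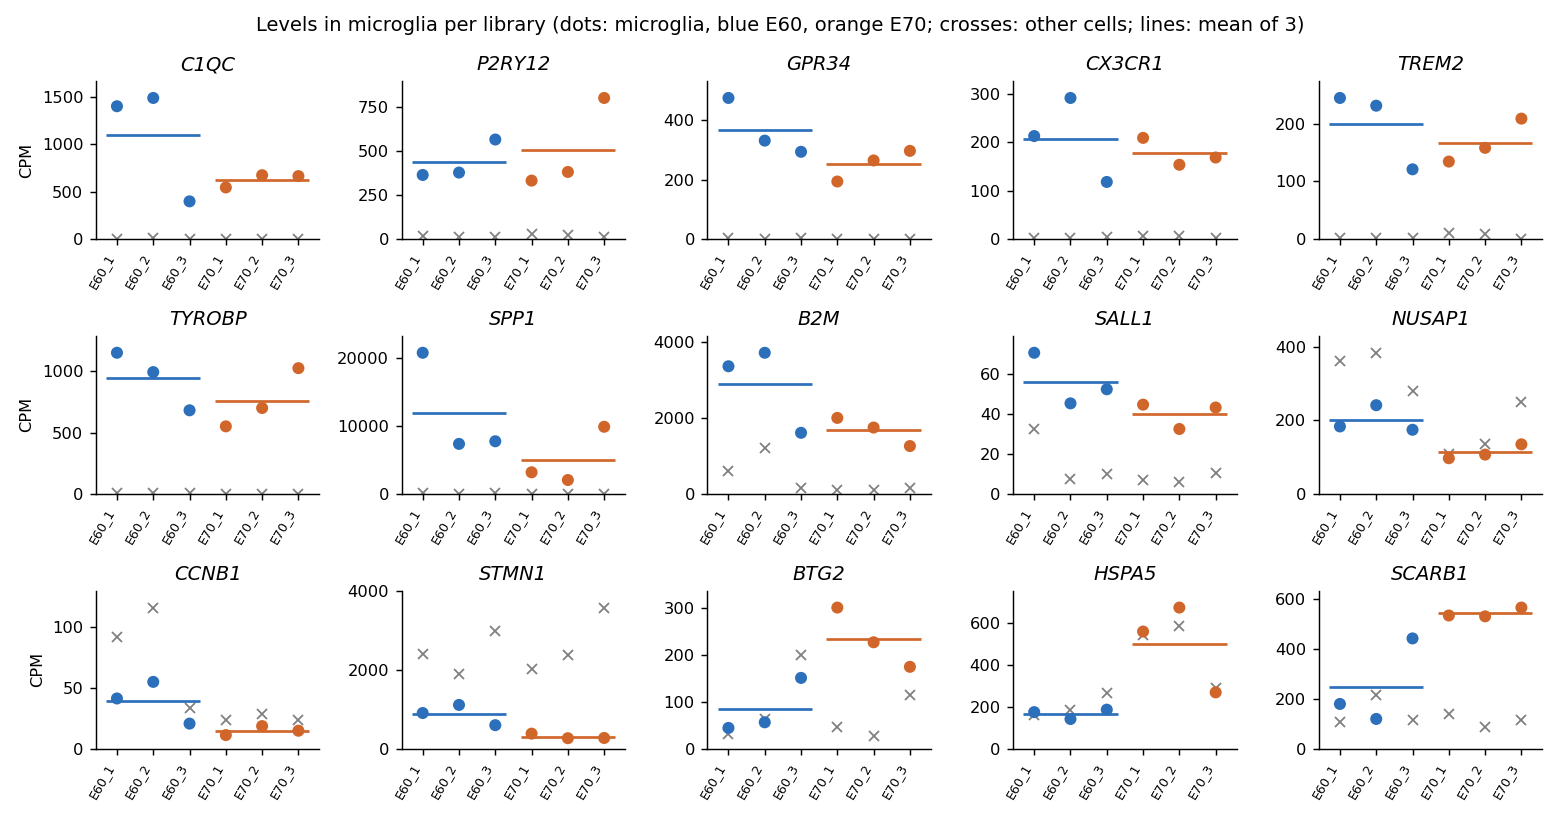
Level in CPM of 15 genes in the microglia of each library (dots, blue E60, orange E70), with the other cells of the same library (crosses) and the mean of the 3 libraries of a stage (lines). For C1QC and TREM2 the E60_3 value lies below the E70 values and for B2M among them, while SCARB1, BTG2, STMN1 and CCNB1 do not overlap between the stages.

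Of 28 lysosomal genes tested, none was higher (0%, beside 7.04% of all genes) and 5 were lower (17.9%, beside 10.9%) at E70 without overlap. These were LAMP1, ASAH1, PSAP, ATP6V0C and CD164, and none passed the test. PSAP, the precursor of the saposins that help break down sphingolipids, was at 838, 966 and 598 CPM at E60 and at 328, 329.8 and 536 CPM at E70 (-1.0 ± 0.41, edgeR adjusted p = 0.260). LAMP1, a protein of the lysosomal membrane, was at 251, 145 and 273 CPM at E60 and at 67.1, 139 and 98.4 CPM at E70 (-1.12 ± 0.44). In the other cells PSAP was at 707, 581 and 206 CPM at E60 and at 206, 203 and 248 CPM at E70, so the 2 libraries rich in microglia were highest there too. NPC2, which carries cholesterol out of lysosomes, was at 2783, 1473 and 1576 CPM at E60 and at 805, 1858 and 2616 CPM at E70, and LAPTM5, a lysosomal protein of hematopoietic cells, was at 834, 718 and 571 CPM and at 678, 613 and 709 CPM. Both overlapped between the stages (-0.15 ± 0.49 and -0.09 ± 0.37).

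Of complement genes and their receptors 7 were tested, and none was separate between the stages in either direction (beside 7.04% of all genes higher and 10.9% lower). ITGB2, the shared chain of the complement receptors, was at 169, 133 and 108 CPM at E60 and at 70.8, 172 and 123 CPM at E70 (-0.17 ± 0.44). C5AR1, the receptor of the complement fragment C5a, was at 68.3, 39.2 and 164 CPM at E60 and at 93.2, 144 and 185 CPM at E70 (0.71 ± 0.52). Of 13 genes of antigen presentation, TAP2, a peptide transporter, was the gene lower without overlap (7.69%, beside 10.9% of all genes). None was higher (0%, beside 7.04%). B2M, the light chain of class I molecules, was at 3350.2, 3704 and 1603 CPM at E60 and at 1994, 1742 and 1255 CPM at E70 (-0.81 ± 0.43, edgeR adjusted p = 0.382). CTSS, a protease that cuts the invariant chain, was at 663, 705 and 353 CPM at E60 and at 261, 344 and 364 CPM at E70 (-0.84 ± 0.42). CD74, the invariant chain itself, was low at both stages, with 14.9 to 41.8 CPM in the 6 libraries, and was at 1550 CPM in the microglia of Adult_1.

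Genes of dividing cells were lower at E70 without overlap for 7 of 35 tested genes (20%, beside 10.9% of all genes). None was higher (0%, beside 7.04%), and the median log2 difference was -0.39. STMN1, a microtubule regulator that is also high in immature neurons, was at 902, 1108 and 595 CPM at E60 and at 380.1, 265 and 271 CPM at E70. Its log2 difference of -1.52 ± 0.41 had an edgeR adjusted p of 0.128, and DESeq2 gave -1.49 with an adjusted p of 0.0219. NUSAP1, a protein of the mitotic spindle, was at 183, 241 and 174 CPM at E60 and at 96.9, 107 and 135 CPM at E70 (-0.80 ± 0.38). CCNB1, the cyclin of entry into mitosis, was at 41.3, 55.0 and 20.6 CPM at E60 and at 11.2, 18.6 and 14.8 CPM at E70 (-1.42 ± 0.54, adjusted p = 0.236). MCM6, of the helicase that opens DNA for replication, was at 49.5, 59.1 and 60.7 CPM at E60 and at 48.4, 32.5 and 45.2 CPM at E70 (-0.39 ± 0.38). In these 4 genes every E60 library was above every E70 library, but most of the list overlapped. HMGB2, a chromatin protein, was at 306, 413 and 379 CPM at E60 and at 227, 74.3 and 429 CPM at E70 (-0.55 ± 0.54), with E70_3 the highest. In the other cells 26 of the 35 genes (74.3%, beside 29.6% of all genes) had E60_1 and E60_2 as the 2 highest libraries, and CCNB1 was at 91.6, 116 and 33.1 CPM at E60 and at 23.4, 28.6 and 23.7 CPM at E70. Measured against the other cells of the same library, the list had a median of 0.45.

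The share of dividing microglia was counted as the cells with at least 2 UMIs of 10 genes of mitosis, after each cell was thinned to 2000 UMIs so that depth did not enter. It was 17.6%, 19.7% and 24.0% at E60 and 11.8% (2 of 17 cells), 5.56% (1 of 18) and 13.9% (14 of 101) at E70. The E60 shares (mean 20.4% ± 3.26, SD, n = 3) lay above all E70 shares (10.4% ± 4.32), a difference of -10.1 percentage points with a two-sided exact permutation p of 0.1, the smallest that 3 against 3 libraries can give. Under a stricter selection of cells, with at least 10 UMIs and 0.2% of UMIs of the rule genes, the difference was -4.78 points. The shares were then 16.2%, 17.9% and 19.4% at E60 and 13.3%, 11.8% and 14.1% at E70, and E60_3 kept 98 of its 125 cells. The random thinning was drawn anew for that selection, with 2 of 17 cells positive in E70_2 beside 1 of 18 above. The selection and the draw therefore changed together. No cell had fewer than 2000 UMIs, so none was left out. Without thinning the shares were 32.5%, 36.6% and 63.2% at E60 and 70.6%, 66.7% and 49.5% at E70, and their difference turned to 18.1 percentage points. Libraries with deeper cells mostly had the higher unthinned shares. In up to 1000 other cells per library with at least 2000 UMIs (median depth of all other cells 4099.5 to 9316 UMIs), the thinned shares were 24.0%, 27.1% and 15.7% at E60 and 6.83%, 7.57% and 14.6% at E70. Between E60_3 and E70_3, which shared a sequencing pool, the share was 24.0% and 13.9% in microglia and 15.7% and 14.6% in other cells, and between E60_1 and E70_1, which shared another, 17.6% and 11.8% in microglia and 24.0% and 6.83% in other cells.

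Border macrophage genes were found in a varying part of the cells. The share of microglia with at least 2 UMIs of 7 border macrophage genes, at 2000 UMIs per cell, was 1.27%, 2.03% and 13.6% at E60 and 11.8% (2 of 17), 5.56% (1 of 18) and 1.98% at E70, against 0% to 1.14% of the other cells, and E60_3 and E70_1 were the highest. The stages differed by 0.80 percentage points (exact permutation p = 0.9), from -1.87 to 4.78 points when 1 library was left out (-1.38 without E60_1, -1.0 without E60_2, -1.87 without E70_1 and 4.78 without E60_3) and by 25.4 points without thinning. E60_3 had the highest levels of MRC1, the mannose receptor, with 154 CPM beside 12.2 and 21.3 CPM in the other E60 libraries and 24.6 to 33.5 CPM at E70. It also had the highest LYVE1, a hyaluronan receptor, with 102 CPM beside 15.8 and 12.7 CPM at E60 and 4.64 to 18.6 CPM at E70. MS4A7, a membrane protein of macrophages, was at 94, 70.1 and 59.5 CPM at E60 and at 18.6, 37.2 and 85.6 CPM at E70, and FOLR2, a folate receptor, was at 81.6, 85.6 and 101 CPM and at 63.4, 102 and 47.2 CPM, so E60_3 did not stand out in either. F13A1, a coagulation factor of macrophages, had another order, with 11, 4.12 and 20.6 CPM at E60 and 93.2, 92.9 and 4.92 CPM at E70. Without E70_3 F13A1 was called higher at E70, with an edgeR adjusted p of 0.0149. DAB2, an endocytic adaptor, was at 117, 92.4 and 333 CPM at E60 and at 82.0, 79.0 and 79.7 CPM at E70. Of 9 tested genes of the border macrophage list it was the gene lower without overlap, near the share of all genes (10.9%). None of the list was higher (0%, beside 7.04% of all genes).

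Cytokine genes were high in the pair of E60_3 and E70_3. Of 12 tested genes 7 had these libraries as the 2 highest (58.3%, beside 19.2% of all genes), among them IL1A, TNF, CCL2, CCL3L1 and CSF1. In other cells 1 of the 12 genes had them as the 2 highest (8.33%, beside 16.8% of all genes). IL1A, an alarm cytokine, was at 9.0, 5.84 and 275 CPM at E60 and at 37.3, 27.9 and 394 CPM at E70. TNF was at 9.0, 9.28 and 195 CPM at E60 and at 26.1, 9.29 and 331 CPM at E70. CCL2, which attracts monocytes, was at 62.8, 84.9 and 249 CPM at E60 and at 134, 79.0 and 655 CPM at E70. None of these differences passed the test, with 0.87 ± 1.29 for IL1A, 1.01 ± 1.24 for TNF and 1.23 ± 0.75 for CCL2 on the log2 scale. Other cells of any of the 6 libraries had at most 8.74 CPM of IL1A, 2.41 CPM of TNF and 5.06 CPM of CCL2. CCL4 had another order, with 0.804, 2.06 and 63.0 CPM at E60 and 652, 55.7 and 52.1 CPM at E70, where E70_1 alone stood out.

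The same pair was highest for NLRP3, a sensor of the inflammasome, with 19.8, 17.9 and 197 CPM at E60 and 48.4, 13.9 and 259.7 CPM at E70, and for CD80, a costimulatory ligand of T cells, with 24.3, 25.1 and 203 CPM and 48.4, 37.2 and 265 CPM. CD44, a hyaluronan receptor, was at 64.1, 41.2 and 287 CPM at E60 and at 55.9, 32.5 and 349 CPM at E70. Of 23 tested myeloid transcription factors 14 (60.9%, beside 19.2% of all genes) had E60_3 and E70_3 as the 2 highest. So did 8 of 14 genes (57.1%) of growth factors and guidance and 10 of 29 immediate early and heat shock genes (34.5%). In other cells these 2 libraries were highest for 2 of the 23 transcription factors (8.7%) and 2 of the 14 guidance list genes (14.3%). For the immediate early and heat shock list, 15 of 29 (51.7%, beside 16.8% of all genes) had the same 2 libraries highest in other cells. The part of that response in the other values of this pair was not tested. RUNX1, which sets up blood lineages, was at 294, 290 and 674 CPM at E60 and at 283, 293 and 946 CPM at E70, and MEF2C, a factor of microglia and neurons, was at 217, 284 and 689 CPM and at 153, 329.8 and 563 CPM. NRP2, a coreceptor of semaphorins, was at 49.7, 34.0 and 213 CPM at E60 and at 41.0, 55.7 and 268 CPM at E70. CST3, a secreted protease inhibitor, went the other way, with 13125 and 23425 CPM in E60_1 and E60_2, 10815 and 5996 CPM in E70_1 and E70_2, and 2842 and 1237 CPM in E60_3 and E70_3. NRP2 is a member of the growth and guidance list. The gene of this list lower at E70 without overlap, of 14 tested (7.14%, beside 10.9% of all genes), was SEMA6D, a transmembrane semaphorin. Its levels were 137, 129.5 and 35.3 CPM at E60 and 18.6, 18.6 and 16.7 CPM at E70 (-2.53 ± 0.61, edgeR adjusted p = 0.110). SEMA6D was called lower by DESeq2 (adjusted p = 0.00679) and by edgeR without E60_3 (0.0307), and other cells had 283, 188 and 94.1 CPM at E60 and 64.5, 69.6 and 117 CPM at E70. Genes outside the lists in this paragraph were picked after their values were seen, and what the 2 libraries share besides the sequencing pool was not tested.

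**Figure D4:**
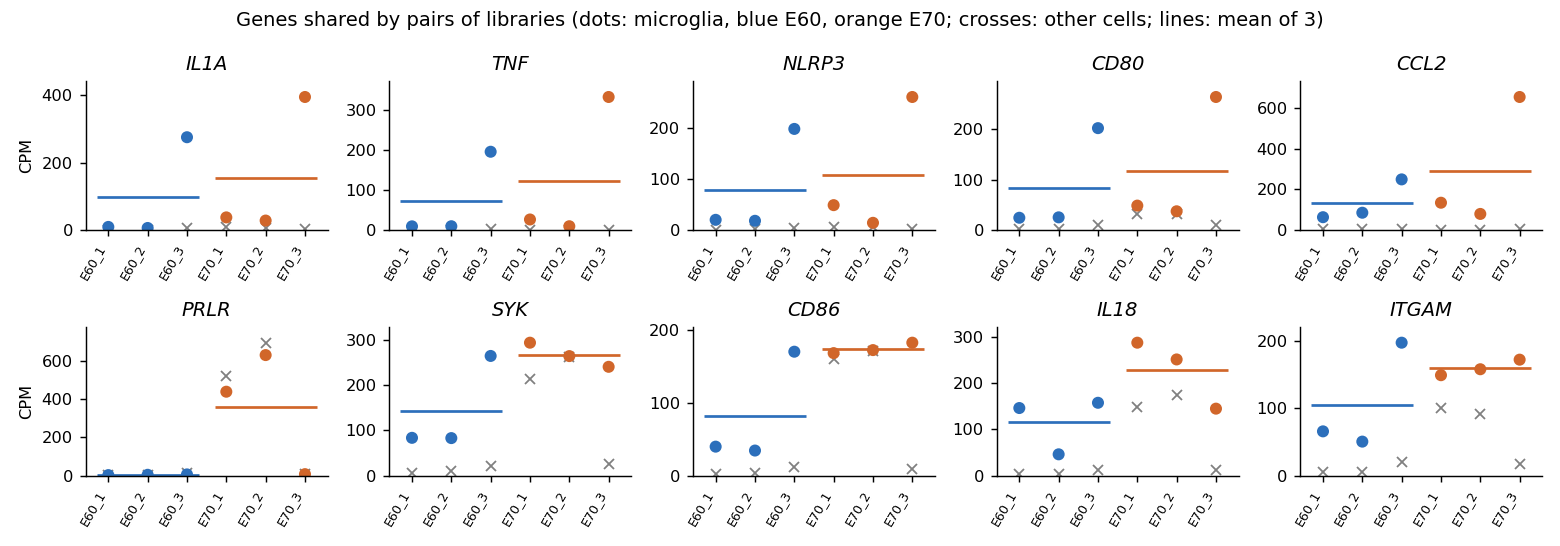
Level in CPM of 10 genes in the microglia of each library (dots, blue E60, orange E70), with the other cells (crosses) and stage means (lines). In the upper row E60_3 and E70_3 stand above the rest, and in the lower row the other cells of E70_1 and E70_2 carry the gene as well, for PRLR at 522 and 697 CPM.

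Immediate early and heat shock genes respond to stimulation and to handling of cells. Of 29 tested, 3 were higher at E70 without overlap (10.3%, beside 7.04% of all genes), BTG2, HSPA5 and HSPE1, and none was lower (0%, beside 10.9%). BTG2, which slows the cell cycle, was at 44.4, 56.4 and 151 CPM at E60 and at 302, 228 and 175 CPM at E70 (1.54 ± 0.50, edgeR adjusted p = 0.176). HSPA5, the chaperone of the endoplasmic reticulum, was at 174, 142 and 186 CPM at E60 and at 559, 673 and 269 CPM at E70 (1.59 ± 0.44, adjusted p = 0.129), and it was called by DESeq2 with an adjusted p of 0.0139. In other cells HSPA5 was at 161, 186 and 267 CPM at E60 and at 545, 583 and 288 CPM at E70, so E70_1 and E70_2 were the highest there too. Without E70_3 HSPA5 was called higher, with an edgeR adjusted p of 0.0093, and so was BAG3 (0.0172). HSP90AA1 and HSPA8, chaperones of the cytosol, were at 2065, 1512 and 825 CPM and at 1036, 794 and 349.9 CPM at E60 and at 2281, 1881 and 1471 CPM and at 824, 975 and 451 CPM at E70, overlapping between the stages (0.34 ± 0.44 and 0.02 ± 0.50). DNAJB1, a cochaperone of the heat shock response, also overlapped and was at 847, 636 and 281 CPM at E60 and at 2191, 2071 and 682 CPM at E70 (1.46 ± 0.56), and BAG3, which works with heat shock proteins but is not on the list and was picked after its values were seen, was at 229, 138 and 102 CPM and at 652, 785 and 265 CPM (1.83 ± 0.53). BAG3 had 50.9 to 127 CPM in other cells, and its level in microglia was above that in other cells in each of the 6 libraries. FOS was at 69.8, 69.1 and 155 CPM at E60 and at 138, 307 and 189 CPM at E70, with E60_3 inside the E70 range. In other cells FOS was at 128, 267 and 790 CPM at E60 and at 177, 67.0 and 695 CPM at E70, with E60_3 and E70_3 the highest.

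Of 19 interferon genes 2 were higher (GBP1 and IFNAR1, 10.5%, beside 7.04% of all genes) and 2 lower (IRF7 among them, 10.5%, beside 10.9%) at E70 without overlap, and none passed the test. IFI6 was at 277, 735 and 34.2 CPM at E60 and at 33.5, 55.7 and 16.7 CPM at E70 (-3.43 ± 0.97, edgeR adjusted p = 0.133), and at 277, 829 and 14.7 CPM in the other cells at E60, so E60_1 and E60_2 were high in all cells. IFI6 was called lower by DESeq2 (adjusted p = 0.00314) and by edgeR without E60_3 (0.0458). GBP1, a guanylate-binding protein, was at 17.4, 14.1 and 17.7 CPM at E60 and at 78.3, 69.7 and 24.6 CPM at E70 (1.74 ± 0.50, adjusted p = 0.141), with 57.7 and 42.1 CPM in the other cells of E70_1 and E70_2. GBP1 was called higher by DESeq2 on all 6 libraries (adjusted p = 0.0337) and by edgeR without E70_3 (0.012). IRF7, the factor that amplifies the interferon response, was at 14.6, 27.8 and 11.2 CPM at E60 and at 0, 4.64 and 6.89 CPM at E70. Among 17 pattern receptors NOD2 and CGAS were higher without overlap (11.8%, beside 7.04% of all genes) and none was lower (0%, beside 10.9%). NOD2, a sensor of bacterial cell walls, was at 33.3, 12.7 and 27.1 CPM at E60 and at 85.7, 195 and 35.4 CPM at E70 (2.05 ± 0.63, adjusted p = 0.165). CGAS, a sensor of DNA, was at 318, 305 and 286 CPM at E60 and at 406, 399 and 350.2 CPM at E70 (0.35 ± 0.36), and other cells had 214 to 368 CPM.

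Metabolic genes were read by the same counts. Of 24 genes of glycolysis and hypoxia 4 were lower (GPI, PKM, LDHA and BNIP3, 16.7%, beside 10.9% of all genes) and PFKP was higher (4.17%, beside 7.04%) at E70 without overlap. LDHA, which turns pyruvate into lactate, was at 219, 182 and 112 CPM at E60 and at 74.5, 60.4 and 100.3 CPM at E70 (-1.11 ± 0.44, edgeR adjusted p = 0.249). GAPDH was at 1375, 1170 and 646 CPM at E60 and at 499, 511 and 853 CPM at E70 (-0.78 ± 0.44). Of 24 lipid genes SCARB1 was higher and IDI1 was lower without overlap, 4.17% each and below both shares of all genes. SCARB1, a receptor of high density lipoprotein, was at 179, 119 and 441 CPM at E60 and at 533, 529 and 565 CPM at E70 (1.19 ± 0.48, adjusted p = 0.257), while other cells had 85.7 to 216 CPM. APOE, the lipid carrier of glia, was at 379, 413 and 551 CPM at E60 and at 138, 320.5 and 544 CPM at E70 (-0.38 ± 0.49), far below the 5924 CPM of E50_1 and the 7173 CPM of Adult_1. Of 16 genes of iron and heme handling none was separate between the stages (0% in either direction, beside 7.04% of all genes higher and 10.9% lower). FTL, the light chain of ferritin, was at 7422, 4680.4 and 9029 CPM at E60 and at 3861, 4366 and 9993 CPM at E70 (-0.19 ± 0.45), with E60_3 and E70_3 the highest. HMOX1, which opens the heme ring, was at 148, 119.6 and 82.5 CPM at E60 and at 365, 358 and 92.5 CPM at E70 (1.19 ± 0.55), and without E70_3 it was called with an edgeR adjusted p of 0.042.

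A set of genes was high in all cells of E70_1 and E70_2 and not in microglia alone. In the other cells of both libraries 461 genes had over 10 CPM and at least 4 times the level of the other cells of E60_1, E60_2, E60_3 and E70_3, and 243 of them were among the genes tested in microglia. Together they took 8.87% and 9.38% of the microglial UMIs of E70_1 and E70_2, and 8.85% and 9.64% of the UMIs of their other cells. In the other 4 libraries they took 0.701% to 1.27% of the microglial UMIs, and in Adult_1 3.24%. Mitochondrial genes took 1.29% of the microglial UMIs in both E70_1 and E70_2, and 1.98% to 3.20% in the other 4 libraries. The sources used here name 1 way of processing for all libraries, and whether E70_1 and E70_2 were processed as the others were was not tested, so every level of these libraries carries that limit. PRLR, the prolactin receptor, was at 2.89, 4.47 and 6.48 CPM in the microglia at E60 and at 440, 632 and 7.87 CPM at E70, beside 522 and 697 CPM in the other cells of E70_1 and E70_2. GCNT1, a glycosyltransferase, was at 15.6, 26.5 and 33.0 CPM at E60 and at 950.3, 1175 and 26.6 CPM at E70, beside 866 and 1200.2 CPM in those other cells. Both missed the threshold of edgeR in all 6 libraries (adjusted p = 0.106) and passed it without E70_3 (0.000509 and 0.000509). DESeq2 called both higher at E70 on all 6 libraries (adjusted p = 2.38e-08 for PRLR and 6.42e-06 for GCNT1).

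Immune genes were among them. SYK, a kinase below TREM2 and Fc receptors, was at 83.7, 83.2 and 265 CPM in the microglia at E60 and at 294, 265 and 241 CPM at E70, and at 6.09, 9.21 and 22.3 CPM in the other cells at E60 and 214, 262 and 25.2 CPM at E70. CD86, a costimulatory ligand, was at 39.7, 34.4 and 170 CPM in the microglia at E60 and at 168, 172 and 182 CPM at E70. The other cells of E70_1 and E70_2 had 160 and 170 CPM, while those of the remaining libraries had 2.33 to 11.5 CPM, so E60_3 and E70_3 had microglial levels as high with 11.5 and 8.76 CPM in their other cells. Without E60_3 CD86 was called higher, with an edgeR adjusted p of 0.0497. ITGAM, a chain of the complement receptor CR3, IL18, CD14 and FCGR1A showed the same in other cells, with 100 and 91.1, 148 and 173, 37.2 and 39.6, and 73.1 and 80.3 CPM in E70_1 and E70_2. How far the level that all cells of E70_1 and E70_2 carried enters the microglial values of these genes was not tested. Of the 504 genes that DESeq2 called higher at E70, 192 (38.1%) were in this set, beside 243 of the 10969 genes tested, and 500 had the same sign in other cells, with a median log2 difference of 2.67 in microglia and 0.25 against the other cells. Of the 1028 genes called higher by edgeR without E70_3, 363 (35.3%) were in this set, of which more genes were tested there, since without E70_3 the filter on low counts kept 12491 genes. The 97 genes that DESeq2 called lower had a median log2 difference of -2.56 in microglia and -1.96 against the other cells, with 0 in this set, 80 of the same sign in other cells and 8 markers of other cell types.

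Each stage difference was then set against the other cells of the same library, with the library as a block and the interaction of cell kind and stage as the test. Of 10969 genes none was called by edgeR, the smallest adjusted p was 0.287, and 830 genes had an unadjusted p under 0.05. STMN1 had the difference -1.65 and PRLR 0.11 in this fit, both on the log2 scale. Across the genes tested, which are not independent replicates and share their libraries, the log2 difference in microglia and that in other cells correlated with r = 0.746.

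**Figure D5:**
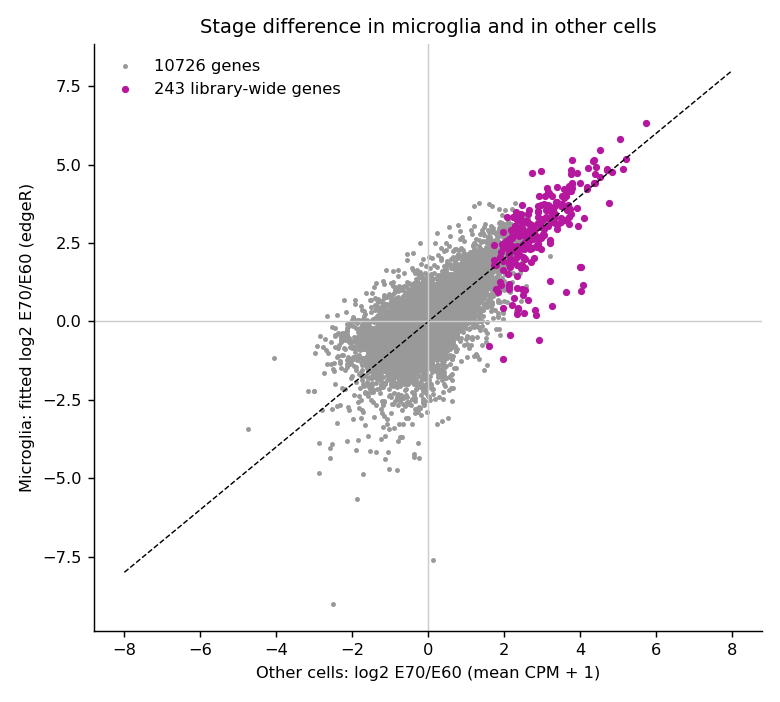
Log2 difference between E70 and E60 of each tested gene in microglia (vertical, edgeR) and in the other cells of the same libraries (horizontal, from mean CPM + 1), with the line of equality dashed. The 243 genes that were high in all cells of E70_1 and E70_2 (purple) lie at positive values on the horizontal axis, and PRLR is at 6.33 in microglia, and r over 10969 genes is 0.746.

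Further genes with no overlap between the stages were picked after their values were seen, for a level in microglia of at least 2 times that in other cells. CASS4 and NOD2 met this at both stages, while RELB, TICAM1 and BAG3 met it in every library at E70, where they were high, but not in every library at E60. Because the genes were picked from these same values, the calls given below are a description and no support for a stage difference. CASS4, an adaptor of focal adhesions, was at 168, 43.0 and 139.6 CPM at E60 and at 593, 706 and 253 CPM at E70 (2.14 ± 0.59, edgeR adjusted p = 0.128), with at most 27.6 CPM in other cells. RELB, a subunit of NF-kB, was at 50.1, 21.0 and 149 CPM at E60 and at 190.1, 251 and 159 CPM at E70 (1.51 ± 0.61). TICAM1, the adaptor of TLR3, was at 23.6, 10.7 and 37.1 CPM at E60 and at 67.1, 79.0 and 51.1 CPM at E70 (1.48 ± 0.49). CASS4, NOD2 and BAG3 were called higher at E70 by DESeq2, with adjusted p of 0.00733, 0.0252 and 0.0164, and by edgeR without E70_3, with adjusted p of 0.0232, 0.0233 and 0.0172, while against other cells their log2 differences were 1.20, 0.19 and 1.94 and none was called. In the other direction TMSB4X, the actin-binding thymosin, was at 34978, 25897 and 22568 CPM at E60 and at 12075, 16000.5 and 22559 CPM at E70 (-0.72 ± 0.38), where E60_3 and E70_3 were almost equal.

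Genes of astrocytes and radial glia had large negative differences, -4.37 for AQP4 and -4.87 for PTN on the log2 scale, that did not pass the test (edgeR adjusted p = 0.161 and 0.117). Without E70_3 PTN was called lower, with an edgeR adjusted p of 0.0312, and without E60_3 AQP4 was called lower (0.0307). DESeq2 on all 6 libraries called PTN lower (adjusted p = 0.0236) and did not call AQP4 (0.0784). AQP4, the water channel of astrocytes, was at 447, 187 and 2.95 CPM in the microglia at E60 and at 3.73, 13.9 and 12.8 CPM at E70, beside 1529 and 251 CPM in the other cells of E60_1 and E60_2. PTN, a growth factor of radial glia, was at 870.3, 3988 and 95.4 CPM at E60 and at 22.4, 9.29 and 122 CPM at E70, beside 3224 and 6123 CPM in those other cells. SPARC, a matrix protein on the homeostatic list, was at 83.9, 137 and 10.6 CPM at E60 and at 7.45, 0 and 4.92 CPM at E70, and DESeq2 called it lower with an adjusted p of 0.00185, as did edgeR without E60_3 (0.0311). All 3 genes were also higher in the other cells of E60_1 and E60_2 than in those of the remaining libraries, and E60_3 was near the E70 libraries. The part of RNA from other cells in these values was not tested.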

How the data were processed

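Single cells of the pig MEC were captured with 10X Genomics version 2 chemistry. The authors mapped the reads with Cell Ranger 2.20 (as the submitters' processing notes write it) to Sscrofa11.1, introns included, and deposited UMI counts per gene and cell before normalization for 10 libraries. Microglia and gene lists were chosen with earlier results of these data known.

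UMIs of microglia were summed per library and fitted with edgeR 4.0.16 (R 4.3.3; TMM, filterByExpr, quasi-likelihood test, Benjamini-Hochberg adjustment, threshold 0.05) for 3 E60 against 3 E70 libraries, with C1QA, C1QB, CSF1R, AIF1 and HBB in the library sizes but not tested. CPM was not adjusted for gene length, so levels are not compared between genes. Other cells are those outside the rule with under 5% HBB. Cells are not replicates, and where nothing says that libraries came from separate litters the p-values measure the spread between libraries, which may be technical. Shares of cells were compared by exact permutation over libraries, two-sided. The dividing share used 10 of 12 genes, since MKI67 and CCNA2 are not in the tables used. The genes named are the 4 of each list with the highest mean CPM, since no gene was called, and others named after their values were seen. DESeq2 1.42.0 and further settings were alternatives, of which 3 were added after the data were seen. Scripts were tested on simulated data. Of 22452 genes, 6495 had no symbol and are counted, not named. Genes near copies or overlapping genes may share reads. Doublets were not called. Some genes that met these rules are not reported here.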

Additional observations from a re-analysis of the deposited data

How the results depend on the processing

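With edgeR and all 6 libraries 0 genes were called higher and 0 lower at E70, with 1794 at an unadjusted p under 0.05. DESeq2 called 504 higher and 97 lower, and 445 and 161 were called with no filter on low counts (17635 genes). Leaving out members with 5 or more UMIs of other cell types gave 11 higher and 1 lower, but left 1 cell in E70_1 and 2 in E70_2. Leaving out 1 library gave from 0 to 1028 higher and from 0 to 114 lower genes, and the calls came without E70_3 (1028 and 114) and without E60_3 (35 and 76). RLE size factors, stricter and looser selection and leaving out cells with many UMIs or border macrophage UMIs gave 0 and 0. So did thinning to the shallowest library and the 3 settings added after the data were seen. The 2 pairs that shared a sequencing pool also gave 0 and 0, but with so few libraries this fit could hardly call a gene. E60_3 against the E70 libraries left 1 library at E60, so only its log2 differences are used, with a median of 0.01. With the replicate number as a block, 0 and 0 genes were called. Same-numbered libraries deviated from their stage means with correlations of -0.070, 0.092 and 0.082, which is not over 0.1 in any pair, so the numbers were not taken to pair the libraries, although 2 of the 3 same-numbered pairs shared a sequencing pool.

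The difference in the dividing share was -10.1 percentage points, 18.1 points when cells were not thinned and -4.78 points under the stricter selection. It was -13.6 points for E60_3 against the E70 libraries and from -11.8 to -7.63 points without 1 library. For both shares the mean over pairs in the replicate block equals the main difference by arithmetic, so it is no separate check. The difference in the border macrophage share was 0.80 points, 25.4 points without thinning and -7.17 points for E60_3 against the E70 libraries. It ran from -1.87 to 4.78 points without 1 library, with -1.38 without E60_1, -1.0 without E60_2 and -1.87 without E70_1. The thinned shares rest on a random draw of UMIs. This draw was made anew for the stricter selection, so that its value reflects the draw as well as the selection. The cause of these changes was not tested.

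Of 139 named genes 43 kept their sign under every setting run and 26 passed the threshold under at least 1, while 224 of 2818 values had the other sign. E70_1 and E70_2, with 17 and 18 microglia, limit the precision of every E70 level, and an absent call does not show that a gene was unchanged. E60_1 and E60_2 stand apart in their share of microglia and in astroglial RNA, and the number of brains per library is recorded differently in the labels and in a table of the study for E70_1 and E70_3.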

Other observations

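Microglia of the single libraries of E50_1 (125 cells) and Adult_1 (228 cells) belong to no tested comparison and are given as values. APOE was at 5924 CPM in E50_1 and 7173 CPM in Adult_1, where the 6 libraries of E60 and E70 had 138 to 551 CPM. SPP1 was at 12652 CPM in E50_1 and 794 CPM in Adult_1. CD74, the invariant chain of class II molecules, was at 1550 CPM in Adult_1. At 2000 UMIs per cell, 12.0% of the microglia of E50_1 and 1.32% of those of Adult_1 (3 of 228 cells) had at least 2 UMIs of the 10 genes of mitosis. At 1000 UMIs per cell these shares were 6.40% and 2.19% (5 of 228 cells). Under the looser selection, at 2000 UMIs, they were 13.2% and 4.62% (11 of 238 cells). The low share of Adult_1 thus moved with the selection and with the random thinning. With 1 library for each, none of these differences has a replicate check.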
